A study of Mus musculus with 8 samples.

Results

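The 10 genes described here are known for their activity in fetal tissue and in tumours. They were named as a group, with earlier results from these livers known: Igf2bp1, Igf2bp2, Igf2bp3 and Lin28b, which encode RNA-binding proteins; Hmga1, Hmga2 and Sox4, which encode DNA-binding proteins; and Gpc3, Golm1 and Prom1, which encode membrane proteins used as tumour or progenitor markers. All 10 were found among the 35275 genes of the deposited table. RNA was sequenced from 8 mouse livers, 4 labelled Triple LKO and 4 labelled WT, and each genotype held 2 females and 2 males. LKO is a liver-specific knockout, here of 3 genes, Zfp36, Zfp36l1 and Zfp36l2, which encode the tristetraprolin (TTP) proteins, and WT is wild type. The labels used here give genotype and sex alone: they name no age, strain, Cre driver or treatment, do not say whether a liver held a tumour, and do not say that the samples came from separate animals. The p-values below therefore measure the spread between these samples, which may be technical.

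TTP proteins attach to AU-rich elements in the untranslated 3′ end (3′ UTR) of an mRNA, which is then degraded. The IGF2BP and LIN28 proteins are RNA binders of embryonic tissue: IGF2BPs stabilise or relocate mRNAs such as that of Igf2, and LIN28 proteins block the maturation of let-7 microRNAs. Let-7 microRNAs, abundant in adult tissue, in turn repress mRNAs that carry matching sites, among them those of Lin28b, Hmga2 and the Igf2bp genes, so the RNA binders and let-7 act in a loop. GPC3 (glypican-3) is a heparan sulfate proteoglycan of the cell surface, abundant in fetal liver and scarce in adult liver, and is used with GOLM1 and PROM1 to describe liver cancer in people.

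The libraries held 15.1 to 18.8 M fragments, as read back from the steps of the FPKM values (fragments divided by transcript length and by the library total). Zfp36 stood at 11.6, 17.4, 4.51 and 3.66 FPKM in LKO-labelled females 1 and 2 and males 3 and 4, against 41.0, 29.5, 61.4 and 46.3 FPKM in WT females 1 and 2 and males 3 and 4. Zfp36l1 was 4.67, 8.63, 0.499 and 0.696 FPKM in the LKO-labelled livers and 10.6 to 21.9 FPKM in the WT livers. Zfp36l2 went against the label in both LKO-labelled females, with 18.1 and 33.0 FPKM there. It was 4.34 and 3.86 FPKM in the LKO-labelled males and 11.8 to 17.2 FPKM in WT livers. The animals are therefore called LKO-labelled throughout. All 3 targeted genes were higher in both LKO-labelled females than in both LKO-labelled males. Sex and the level of the targeted genes therefore cannot be told apart among LKO-labelled livers. Mitochondrial genes took 2.80% and 3.44% of fragments in LKO-labelled females and 7.09% and 10.4% in LKO-labelled males, against 6.53% to 7.76% in WT livers. Gm42418, which overlaps ribosomal RNA sequence, took 0.0423% in LKO-labelled female 1 and 0.0602% in WT male 4 and at least 3.19% in every other library.

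Let-7 sites in the 3′ UTRs of the members are shown first, because 6 of the 10 genes hold at least 1 and the microRNA is the one that LIN28 proteins act on. The mature let-7a and let-7b sequences below are from RefSeq on GRCm38.p6, at chr13:48538239-48538260 on the minus strand and chr15:85707325-85707346 on the plus strand, with the seed (bases 2 to 8) in capitals. Of the 10 let-7 names in that table, 9 share this seed.
mmu-let-7a-5p: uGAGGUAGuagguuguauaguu
mmu-let-7b-5p: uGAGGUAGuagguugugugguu

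The complement of the seed, written as DNA, is CTACCTC. It was searched on the mRNA strand alone in the annotated 3′ UTR of each member (GENCODE M21 on GRCm38), and so was TATTTAT, the core of the AU-rich element that TTP proteins bind. No printed match of either motif overlaps the other. Windows of 30 bases, 1 for each of the 6 members with a let-7 match, are printed 5′ to 3′ along the mRNA with the match in capitals; where a gene has several matches, the first in the 3′ UTR is shown.
Igf2bp1, chr11:95961767-95961796, minus strand: tgcgaagtaaaCTACCTCaaggtgtgaagt
Igf2bp2, chr16:22059462-22059491, minus strand: acaaataaaagCTACCTCaggtgtttttta
Igf2bp3, chr6:49086776-49086805, minus strand: tttttactcaaCTACCTCaggtattcagta
Lin28b, chr10:45381011-45381040, minus strand: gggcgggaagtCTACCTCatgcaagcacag
Hmga1, chr17:27563281-27563310, plus strand: ctgttcacaaaCTACCTCtggacggttgtg
Hmga2, chr10:120364213-120364242, minus strand: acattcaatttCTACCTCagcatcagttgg

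Igf2bp1, Lin28b and Hmga2 each held 4 matches to the let-7 seed, in 3′ UTRs of 6337, 4445 and 3014 bases. Igf2bp2, Igf2bp3 and Hmga1 held 1 match each, and Sox4, Gpc3, Golm1 and Prom1 held none. Among annotated 3′ UTRs within 20% of the same length, the member itself included, 0.357% had at least as many matches as Igf2bp1. The share was 0.238% for Lin28b and 0.135% for Hmga2. A single match was more common: 12% of 3′ UTRs like that of Igf2bp2 held at least 1, as did 13.3% of those like Igf2bp3 and 7.95% of those like Hmga1. Of all 20985 annotated 3′ UTRs, 8.95% held the let-7 match. Few 3′ UTRs of like length thus held as many as 4 matches, but these genes were already known to carry let-7 sites, as stated above.

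The TTP core is printed for Gpc3 and Sox4, which hold 1 each, because its letters are those that the products of the targeted genes recognise. These are not all the members that hold the core, so nothing is read from which members do.
Gpc3, chrX:52387961-52387990, minus strand: ctataagcattTATTTATgatggtccaaat
Sox4, chr13:28950187-28950216, minus strand: atatgtggacgTATTTATactggccaaaca

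Of 3′ UTRs of similar length, 10.8% of those like Gpc3 and 51.1% of those like Sox4 held the core, and over all 3′ UTRs the share was 27.5%. The share was lower at the short length of the Gpc3 3′ UTR, 441 bases, than at the 2780 bases of Sox4. Among the 12284 genes tested for genotype that have an annotated 3′ UTR, those with a core were called higher in LKO-labelled livers in 28.9% of cases and lower in 3.43%, and those without it in 24.9% and 6.60%; the median 3′ UTR was 2130 bases with the core and 809 bases without. For the let-7 match the shares were 25.2% higher and 4.93% lower with it and 26.2% and 5.75% without it. These matches are letters in a reference sequence and do not show that a protein or microRNA was bound.

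**Figure D1:**
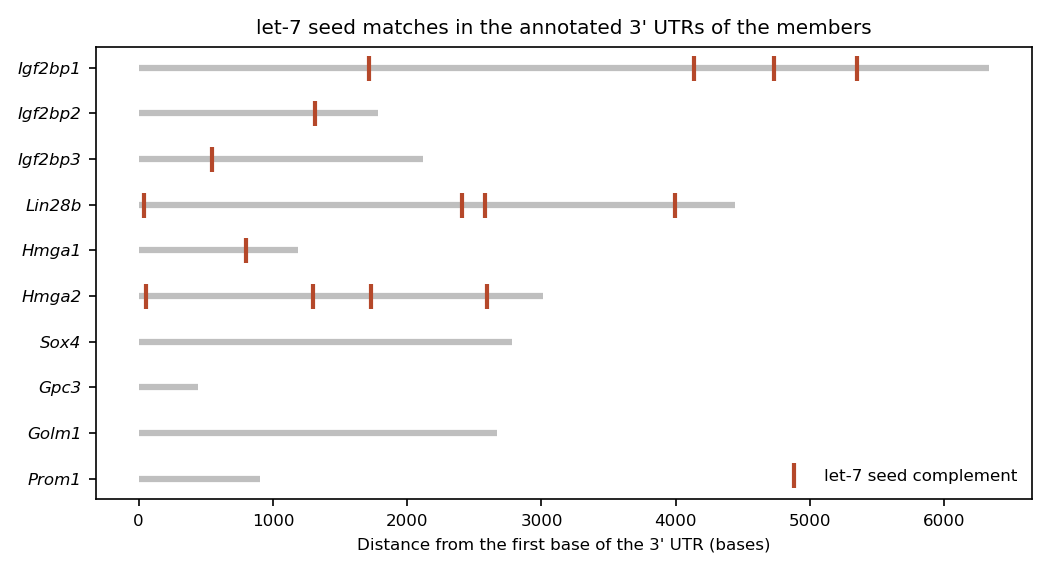
Positions of the let-7 seed complement (red bars) along the annotated 3′ UTR (grey) of each member, in bases from its first base. Igf2bp1, Lin28b and Hmga2 carry 4 matches each, Igf2bp2, Igf2bp3 and Hmga1 carry 1 each, and the other 4 members carry none.

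Igf2bp3 was the RNA binder that rose in every LKO-labelled liver. It lies on chromosome 6 (ENSMUSG00000029814, 49085223 to 49214957, minus strand). Its level was 9.22 and 2.70 FPKM in LKO-labelled females 1 and 2 and 1.495 and 2.30 FPKM in males 3 and 4, against 0.153 and 0.136 FPKM in WT females 1 and 2 and 0.0382 and 0.0457 FPKM in WT males 3 and 4. The groups did not overlap, and female 1 was far above the other LKO-labelled livers. The means were 3.93 ± 3.56 FPKM in LKO-labelled and 0.0930 ± 0.0594 FPKM in WT livers (SD, n = 4 each), a ratio of 42.3, and without LKO-labelled female 1 the LKO-labelled mean was 2.17 ± 0.616 FPKM (SD, n = 3) and the ratio 23.3. The fitted difference on the log2(FPKM + 1) scale, on which folds of low genes are compressed, was 1.94 ± 0.35 (SE), with an adjusted p of 0.00676 from limma over all genes tested. Splitting the 8 livers in all 70 ways into 4 and 4, an exact permutation test (two-sided) gave p = 0.0286, the smallest it can give. Malsu1, a gene on the opposite strand whose exons share 1529 bases with those of Igf2bp3, differed by 0.43 on the same scale (limma adjusted p = 0.128); the strand setting of the counting is not given in the sources used here, so reads of overlapping genes cannot be told apart.

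Igf2bp1 and Igf2bp2 had their highest levels in the LKO-labelled females, Igf2bp1 mostly in 1 of them. Igf2bp1 (ENSMUSG00000013415, chromosome 11, 95957163 to 96005940, minus strand) was measured at 5.41 FPKM in LKO-labelled female 1 and 0.420 FPKM in female 2 and had no fragment in the LKO-labelled males, against no fragment in 3 WT livers and 1 fragment, 0.0079 FPKM, in WT male 4. Female 1 held 706 of the 765 fragments in LKO-labelled livers, and a library with none may still have up to 3 for counting error. Its fitted difference was 0.79 ± 0.50 (SE, limma adjusted p = 0.238) over both sexes and 1.59 in females (limma adjusted p = 0.0750), and neither passed the threshold of 0.05. Fitted to the recovered fragments with limma-voom, which has no pseudocount of 1 FPKM, it was 5.70 (limma adjusted p = 0.0484), and with median-of-ratios scaling added 5.21 (limma adjusted p = 0.0812). The interaction was 1.60 (limma adjusted p = 0.285), so a difference between the sexes was not shown. Without LKO-labelled female 2 it was 2.69, but that fit held only LKO-labelled female 1 for its group, so no p-value is given. Without LKO-labelled female 1, Igf2bp1 fell below the minimum mean of 0.5 FPKM set for the fit and was not tested.

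Igf2bp2 (ENSMUSG00000033581, chromosome 16, 22059009 to 22163299, minus strand), the member of the family that remains active in many adult tissues, stood at 3.58 and 2.36 FPKM in LKO-labelled females 1 and 2 and at 0.0967 and 0.227 FPKM in males 3 and 4. The WT livers held 0.158 and 0.297 FPKM in females 1 and 2 and 0.112 and 0.147 FPKM in males 3 and 4. Both LKO-labelled females lay above all WT livers, and both LKO-labelled males lay within or below their range. Over both sexes the difference was 0.86 ± 0.34 (SE, limma adjusted p = 0.0853) and missed the threshold; with limma-voom on recovered fragments it was 2.73 (limma adjusted p = 0.0160). The females alone differed by 1.68 (limma adjusted p = 0.00259) and the males alone by 0.04 (limma adjusted p = 0.941). The difference between the sexes in the genotype effect was 1.64 ± 0.35 (SE) with a limma adjusted p of 0.0363 for the interaction. That call was lost when any of LKO-labelled males 3 and 4 or the 4 WT livers was left out, fits that left 1 liver in a genotype and sex. Without LKO-labelled female 1, Igf2bp2 fell below the minimum mean of 0.5 FPKM set for the fit and was not tested.

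Lin28b, the block on let-7 maturation, was at the limit of detection. Lin28b (ENSMUSG00000063804, chromosome 10, 45376620 to 45486395, minus strand) had 3 fragments in LKO-labelled male 3, 0.0296 FPKM, and none in the other LKO-labelled livers or in any WT liver. A count of 3 is no more than a library with none may have missed, so no difference was detectable at this depth. Its paralog Lin28a stood at 0.330 and 0.0340 FPKM in LKO-labelled females 1 and 2 and had no fragment in LKO-labelled males or WT livers. Trim71, which encodes an RNA-binding ubiquitin ligase of the same let-7 circuit in embryos, stood at 1.14 and 0.0511 FPKM in LKO-labelled females 1 and 2 and had no fragment in LKO-labelled males, against 0.0258 FPKM in WT female 1 and no fragment in the other WT livers. Igf2bp1, Lin28a and Trim71 were thus each highest in LKO-labelled female 1, and Lin28b was not detected in that liver.

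Hmga1 rose in LKO-labelled livers of both sexes. HMGA proteins bind the minor groove of AT-rich DNA and bend chromatin, and Hmga1 lies on chromosome 17 (ENSMUSG00000046711, 27556497 to 27563674, plus strand). Its level was 56.1 and 26.3 FPKM in LKO-labelled females 1 and 2 and 33.4 and 32.8 FPKM in males 3 and 4, against 5.39 and 8.90 FPKM in WT females 1 and 2 and 7.35 and 6.17 FPKM in WT males 3 and 4. The groups did not overlap, and the lowest LKO-labelled liver stood well above the highest WT liver. The means were 37.1 ± 13.0 FPKM in LKO-labelled and 6.95 ± 1.53 FPKM in WT livers (SD, n = 4 each), a ratio of 5.34. The fitted log2 difference was 2.23 ± 0.26 (SE, limma adjusted p = 0.00135), and the two-sided exact permutation p was 0.0286. Hmga1b, a near-identical copy whose reads the counting could split from those of Hmga1, did not exceed 0.868 FPKM in any LKO-labelled liver or 0.181 FPKM in any WT liver. AI413582, whose exons share 102 bases with Hmga1 on the opposite strand, was also higher in LKO-labelled livers, by 1.69 (limma adjusted p = 0.00759).

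Hmga2, the paralog of Hmga1 that is mainly active in embryonic and tumour tissue, was close to the limit of detection. Hmga2 (ENSMUSG00000056758, chromosome 10, 120361275 to 120476469, minus strand) had 0 and 32 fragments in LKO-labelled females 1 and 2 and 3 in each LKO-labelled male, against 1 in each WT female and none in the WT males. In FPKM this was 0.501 in LKO-labelled female 2, at most 0.0442 in the other LKO-labelled livers and at most 0.0158 in WT livers. LKO-labelled female 2 stood apart, and female 1, which had the highest Hmga1, had no Hmga2 fragment. Its mean was below the minimum of 0.5 FPKM set for the fit across genes, and the two-sided exact permutation p was 0.143. Hmga2 carries 4 let-7 matches and Hmga1 carries 1, as printed above.

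Sox4 encodes a transcription factor with an HMG box, active in progenitor cells and in many tumours. Sox4 (ENSMUSG00000076431, chromosome 13, 28948919 to 28953713, minus strand) was measured at 2.72 and 10.3 FPKM in LKO-labelled females 1 and 2 and 0.622 and 2.80 FPKM in males 3 and 4, against 0.226 and 0.184 FPKM in WT females 1 and 2 and 0.0924 and 0.207 FPKM in WT males 3 and 4. Every LKO-labelled liver lay above every WT liver, and female 2 was the highest of them. The means were 4.11 ± 4.24 FPKM in LKO-labelled and 0.177 ± 0.0592 FPKM in WT livers (SD, n = 4 each), a ratio of 23.1, and without LKO-labelled female 2 the LKO-labelled mean was 2.05 ± 1.23 FPKM (SD, n = 3) and the ratio 11.5. The fitted log2 difference was 1.77 ± 0.45 (SE, limma adjusted p = 0.0216), and the two-sided exact permutation p was 0.0286. Without LKO-labelled male 4 the limma adjusted p was 0.0595, without WT female 1 it was 0.0613 and without WT female 2 it was 0.0670, so the call depended on these livers.

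Gpc3 rose over both sexes in the fit, with far higher levels in the LKO-labelled females than in the males. Gpc3 (ENSMUSG00000055653, chromosome X, 52272426 to 52613950, minus strand) was measured at 31.5 and 82.5 FPKM in LKO-labelled females 1 and 2 and 0.408 and 3.16 FPKM in males 3 and 4, against 0.462 and 0.266 FPKM in WT females 1 and 2 and 0.150 and 0.0896 FPKM in WT males 3 and 4. LKO-labelled male 3 lay below WT female 1, so the groups overlapped, although within each sex both LKO-labelled livers were above both WT livers, as they were for 54.2% of all genes tested in females and 47.8% in males. The mean was 57.0 ± 36.1 FPKM in LKO-labelled females and 0.364 ± 0.139 FPKM in WT females, and 1.79 ± 1.95 FPKM in LKO-labelled males and 0.1198 ± 0.0427 FPKM in WT males (SD, n = 2 each).

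The fitted difference of Gpc3 over both sexes was 3.19 ± 0.81 (SE, limma adjusted p = 0.0222). The females differed by 5.26 (limma adjusted p = 0.000894) and the males by 1.11 (limma adjusted p = 0.214). The interaction, the female difference less the male one, was 4.15 ± 0.80 (SE, limma adjusted p = 0.0296). The genotype call rested on single WT livers, with a limma adjusted p of 0.0635 without WT female 1 and 0.0670 without WT female 2. The interaction call was lost without LKO-labelled male 3 and without any of the 4 WT livers. Each of these fits left 1 liver in a genotype and sex, so no p-value is given. The two-sided exact permutation p of Gpc3 was 0.0571 over all splits and 0.0556 over the 36 splits within sex, the smallest that the design within sex allows.

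Golm1 encodes a membrane protein of the Golgi apparatus that is shed into serum and is measured as a liver cancer marker in people. Golm1 (ENSMUSG00000021556, chromosome 13, 59634626 to 59675811, minus strand) was measured at 46.8 and 11.6 FPKM in LKO-labelled females 1 and 2 and 3.76 and 9.80 FPKM in males 3 and 4, against 1.09 and 1.04 FPKM in WT females 1 and 2 and 0.5998 and 0.430 FPKM in WT males 3 and 4. The groups did not overlap, and the order within the LKO-labelled livers, with female 1 highest and male 3 lowest, was the same as for Igf2bp3. The means were 18.0 ± 19.5 FPKM in LKO-labelled and 0.790 ± 0.325 FPKM in WT livers (SD, n = 4 each), a ratio of 22.8, and without LKO-labelled female 1 the LKO-labelled mean was 8.39 ± 4.11 FPKM (SD, n = 3) and the ratio 10.6. The fitted log2 difference was 2.91 ± 0.47 (SE, limma adjusted p = 0.00478), and the two-sided exact permutation p was 0.0286. Naa35, whose exons share 1297 bases with Golm1 on the opposite strand, differed by -0.17 (limma adjusted p = 0.443).

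Prom1 encodes prominin-1, also called CD133, a membrane glycoprotein of bile duct and progenitor cells. Prom1 (ENSMUSG00000029086, chromosome 5, 43993620 to 44102032, minus strand) was measured at 4.12 and 7.92 FPKM in LKO-labelled females 1 and 2 and 0.0711 and 3.21 FPKM in males 3 and 4, against 4.33 and 3.29 FPKM in WT females 1 and 2 and 0.0740 and 0.336 FPKM in WT males 3 and 4. The genotypes overlapped throughout: WT female 1 was above 3 LKO-labelled livers, and LKO-labelled male 3 was the lowest of all. The fitted log2 difference was 0.66 ± 0.41 (SE, limma adjusted p = 0.231). Among WT livers Prom1 was higher in females than in males by 2.0 ± 0.59 (SE), with a limma adjusted p of 0.608 over all genes.

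**Figure D2:**
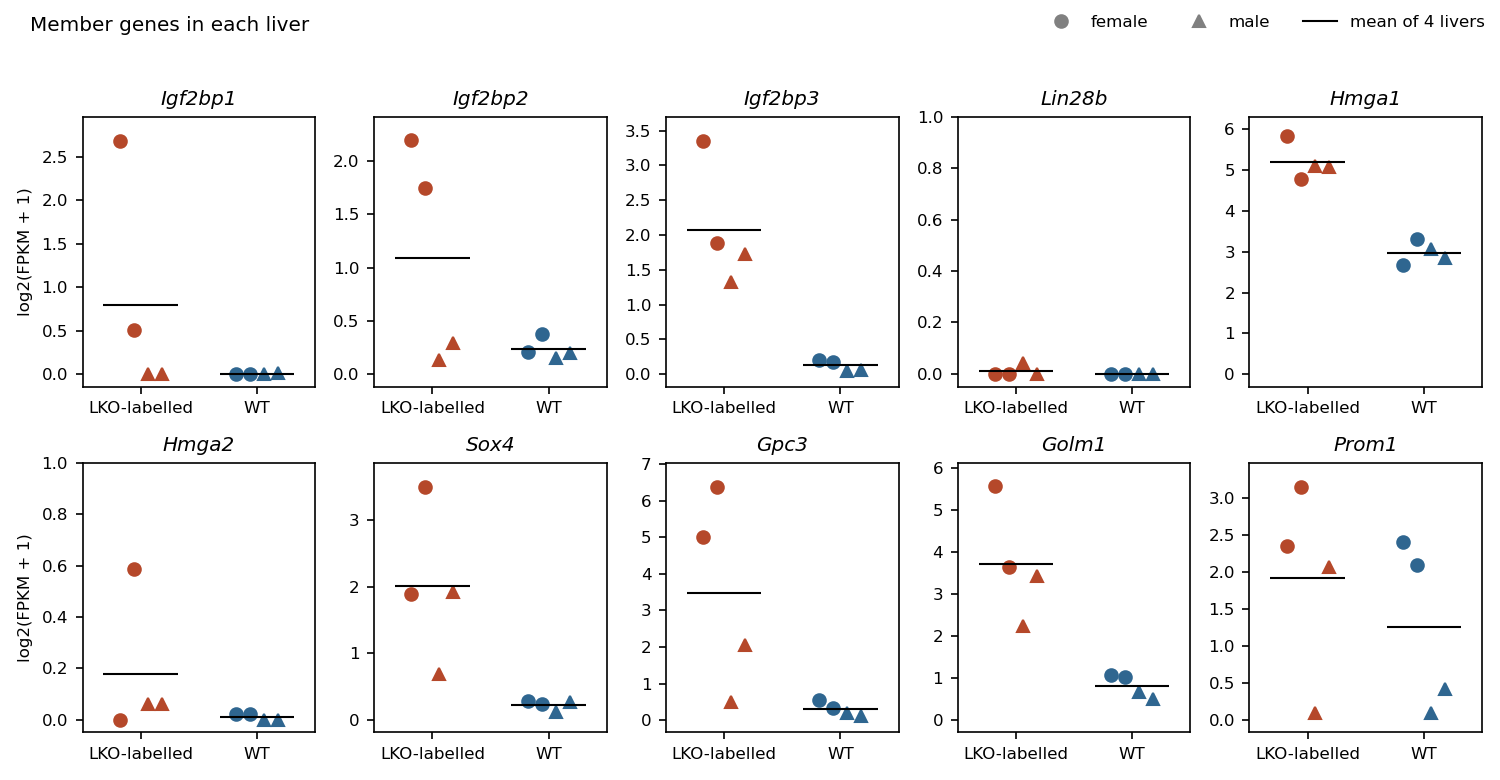
Level of each member in each liver on the log2(FPKM + 1) scale, with LKO-labelled livers (red) left of WT livers (blue), circles for females, triangles for males and a line at the mean of 4 livers; each panel has its own axis. The groups do not overlap for Igf2bp3, Hmga1, Sox4 and Golm1, and for Igf2bp2 both LKO-labelled females lie above all other livers.

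By level in the LKO-labelled livers, the order of the means per length was Hmga1, Gpc3, Golm1, Sox4, Igf2bp3, Prom1, Igf2bp2, Igf2bp1, Hmga2 and Lin28b. Every pair of neighbours in that order differed by less than the larger of their SDs. In the WT livers Hmga1 was highest, at 6.95 ± 1.53 FPKM, Prom1 next, at 2.01 ± 2.13 FPKM, and the other 8 members had a mean below 1 FPKM.

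Of the 10 members, 8 reached a mean of 0.5 FPKM over the livers and entered the fit across genes. Gpc3, Igf2bp1, Igf2bp2, Igf2bp3 and Sox4 had WT means below 0.5 FPKM and entered only through their level in LKO-labelled livers. The counts therefore describe those 8 and not the list, and their height beside the shares of all genes supports nothing. Over both sexes 5 of the 8 were called higher, Igf2bp3, Hmga1, Sox4, Gpc3 and Golm1, and none lower. Across all 13573 genes tested, 24.7% were called higher and 5.74% lower (30.4% in either direction), so a call was common. The median log2 difference was 1.86 for the 8 members and 0.39 for all genes tested. The groups did not overlap, with LKO-labelled livers above WT livers, for 4 members, and this held for 25.6% of all genes tested.

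Within females 6 of the 8 were called higher, the same 5 and Igf2bp2, against 28.1% of all genes tested. Within males 2 of the 8 were called higher, Hmga1 and Golm1, against 13.4% of all genes. The interaction was called for 2 of the 8, Gpc3 and Igf2bp2, both with the larger change in females, against 5.47% of all genes in that direction. The limit given above, entry through a high level in LKO-labelled livers, holds for these counts too. Mean Zfp36, Zfp36l1 and Zfp36l2 were 14.5, 6.65 and 25.55 FPKM in LKO-labelled females. In LKO-labelled males they were 4.09, 0.597 and 4.10 FPKM. A sex difference in the genotype effect therefore cannot be told apart from this difference in the targeted genes. For Igf2bp3, Hmga1, Golm1 and Sox4 the interaction was 0.97, 0.17, 1.33 and 1.31 on the log2 scale, with limma adjusted p between 0.341 and 0.864. Single livers moved these values. Without LKO-labelled female 2 the interaction was 1.70 for Igf2bp3 and 2.29 for Golm1, and without LKO-labelled female 1 it was 2.12 for Sox4. Each of these fits left 1 LKO-labelled female, whose group then shows no spread, so only the effect sizes are given. Whether the genotype difference of these 3 genes differs between the sexes is thus not settled by these livers.

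**Figure D3:**
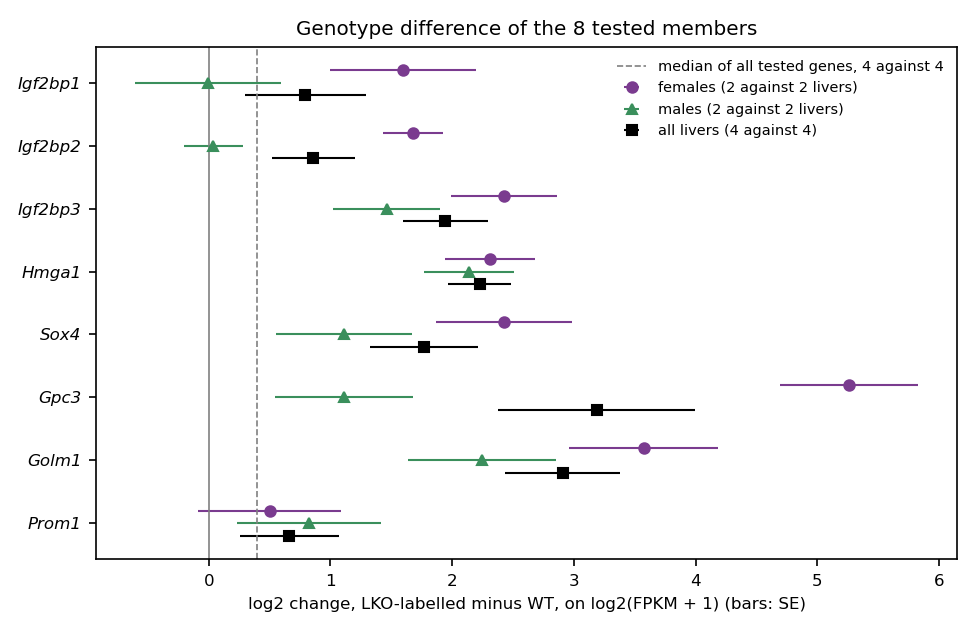
Genotype difference, LKO-labelled minus WT, of the 8 tested members on the log2(FPKM + 1) scale, for females (purple circles), males (green triangles) and all livers (black squares), with bars of 1 SE and a dashed line at 0.39, the median of all genes tested. Gpc3 lies at 5.26 in females and 1.11 in males, and Hmga1 at 2.31 and 2.14.

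Around the RNA binders, the genes of let-7 production and decay were examined next. Of 13 tested genes of that list other than Lin28b, 6 were called higher and none lower, against 24.7% and 5.74% of all genes tested. Their median difference was 0.73 beside 0.39 for all genes. Hnrnpa1, an RNA binder that represses the processing of let-7 precursors, was 89.1 ± 19.3 FPKM in LKO-labelled and 30.3 ± 3.22 FPKM in WT livers (SD, n = 4 each), a difference of 1.51 (limma adjusted p = 0.00254). Drosha, the nuclease that cuts primary microRNAs, was 9.16 ± 3.10 FPKM in LKO-labelled and 2.70 ± 0.318 FPKM in WT livers, a difference of 1.41 (limma adjusted p = 0.00517). Khsrp, which promotes let-7 processing, and Dgcr8, the partner of Drosha, differed by 0.79 and 0.73 (limma adjusted p = 0.00994 and 0.0273). Genes that promote and genes that oppose let-7 production were thus among those that rose; mature let-7 was not analysed here.

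Of 25 tested let-7 target genes that are not members, 7 were called higher and none lower, with a median of 0.70. In females 12 of them were called higher and in males 1, against 28.1% and 13.4% of all genes tested. Map4k4, a kinase, was 17.9 ± 8.87 FPKM in LKO-labelled and 2.55 ± 0.512 FPKM in WT livers (SD, n = 4 each), a difference of 2.33 (limma adjusted p = 0.00119). Thbs1, an extracellular matrix protein, differed by 3.06 (limma adjusted p = 0.00571), Cdc25a, a cell cycle phosphatase, by 1.60 (limma adjusted p = 0.00980) and Tgfbr1, a TGF-beta receptor, by 1.10 (limma adjusted p = 0.0207). The share called higher among the targets, 7 of 25, lay close to the 24.7% of all genes tested.

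Of 12 tested mRNAs known to be bound by IGF2BP proteins, 7 were called higher and none lower, with a median of 0.99, against 24.7% of all genes called higher. In females 9 were called higher and in males 5, against 28.1% and 13.4% of all genes tested. The list holds Igf2 and H19 and was chosen with earlier results of these livers known, so its counts support nothing on their own. Igf2, the fetal growth factor that gave the family its name, was 3044 and 719.2 FPKM in LKO-labelled females 1 and 2 and 18.2 and 36.8 FPKM in males 3 and 4, against 0.0938 to 0.349 FPKM in WT livers. H19, the imprinted RNA next to Igf2, had the opposite order between the sexes, with 8.76 and 21.02 FPKM in LKO-labelled females and 736.4 and 2016 FPKM in LKO-labelled males, against 0.0484 to 1.13 FPKM in WT livers. Actb, which encodes beta-actin, differed by 1.35 (limma adjusted p = 0.00662) and Mki67, a gene of dividing cells, by 1.78 (limma adjusted p = 0.00856). All LKO-labelled livers thus held Igf2 and H19 above every WT liver. Igf2 was highest in the LKO-labelled females, where all 3 Igf2bp genes were above their WT range and H19 was lowest of the LKO-labelled livers. Whether IGF2BP proteins bear on the level of Igf2 or H19 was not tested.

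IGF2BP proteins read N6-methyladenosine (m6A) on mRNA, and of 17 tested m6A writers, erasers and readers 2 were called higher and none lower, with a median of 0.25. These were Ythdc2, a reader with a helicase domain, at 0.86 (limma adjusted p = 0.0273), and Fto, a demethylase, at 0.55 (limma adjusted p = 0.0332). The writers Mettl3 and Mettl14 differed by 0.23 and 0.13 (limma adjusted p = 0.273 and 0.579). The list had a smaller share called than all genes tested.

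Among the relatives of the DNA-binding members, Hmgb2 and Hmgn2 were called higher of 6 tested HMG genes, and none lower, with a median of 0.49. For all genes tested the shares were 24.7% higher and 5.74% lower. Hmgb2, a chromatin protein of proliferating cells, was 8.07 ± 2.24 FPKM in LKO-labelled and 2.14 ± 0.531 FPKM in WT livers (SD, n = 4 each), a difference of 1.51 (limma adjusted p = 0.00190). Hmgn2, which binds nucleosomes, differed by 0.92 (limma adjusted p = 0.0225). None of 8 other tested Sox genes was called in either direction, with a median of 0.47. In females 3 were called higher, against 28.1% of all genes tested. The smallest adjusted p over both sexes, for Sox18 of endothelial cells at 0.97, was 0.0552 in limma. Over both sexes Sox4 was thus the only one of 9 tested Sox genes past the threshold, and with quantile normalization it missed it too (limma adjusted p = 0.0528).

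Beside Gpc3, 21 other tested genes of glypicans, syndecans and heparan sulfate metabolism held 1 call higher and 1 lower, with a median of 0.24. For all genes tested the shares were 24.7% higher and 5.74% lower. Notum, a secreted enzyme that cleaves a lipid from Wnt proteins, fell to 0.379 ± 0.280 FPKM in LKO-labelled livers, against 8.28 ± 2.81 FPKM in WT livers (SD, n = 4 each), a difference of -2.72 (limma adjusted p = 0.00059). Hs2st1, a sulfotransferase of heparan sulfate, differed by 0.74 (limma adjusted p = 0.0146). The other glypicans tested, Gpc1, Gpc4 and Gpc6, differed by 0.31, 0.02 and 0.74 and had limma adjusted p of 0.724, 0.957 and 0.188.

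Beside Golm1, 3 of 12 tested Golgi genes were called higher and none lower, with a median of 0.25. Casc4, the closest relative of Golm1, was 3.49 ± 1.81 FPKM in LKO-labelled and 0.802 ± 0.0951 FPKM in WT livers (SD, n = 4 each), a difference of 1.24 (limma adjusted p = 0.0131). Golga5 and Golga2, coiled-coil proteins of the Golgi membrane, differed by 0.75 and 0.65 (limma adjusted p = 0.0168 and 0.0208). The share of Golgi genes called higher was that of all genes tested to within 1 gene.

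Beside Prom1, 5 of 12 tested markers of progenitor or tumour-initiating cells were called higher and 1 lower, with a median of 1.91, against 24.7% and 5.74% of all genes. By sex, in females 9 were called higher and 1 lower, with a median of 3.22, and in males 3 higher and 1 lower, with a median of 0.02. Of all genes tested, 28.1% were called higher in females and 13.4% in males. The interaction was called for 6 of the 12, all with the larger change in females, against 5.47% of all genes in that direction. The list shares Afp, Dlk1 and Ly6d with the oncofetal list described next and was chosen with earlier results known. Its counts therefore support nothing on their own. Icam1, an adhesion molecule, was 32.5 ± 12.2 FPKM in LKO-labelled and 3.22 ± 1.11 FPKM in WT livers (SD, n = 4 each), a difference of 2.97 (limma adjusted p = 0.000526). Itga6, an integrin subunit, was 14.9 ± 13.7 FPKM in LKO-labelled and 0.936 ± 0.356 FPKM in WT livers, a difference of 2.59 (limma adjusted p = 0.00369). Ly6d, a small surface antigen, differed by 4.45 (limma adjusted p = 0.000464). Lgr5, a receptor that marks hepatocytes near the central vein, fell to 0.0586 ± 0.0496 FPKM in LKO-labelled livers, against 1.52 ± 0.518 FPKM in WT livers, a difference of -1.23 (limma adjusted p = 0.00481).

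Of 14 other tested oncofetal liver genes, Igf2, H19 and Ly6d among them, 10 were called higher and none lower, with a median of 4.77. For all genes tested the shares were 24.7% higher and 5.74% lower. Tff3, a secreted trefoil peptide, was 444.3, 86.5, 180.1 and 191.7 FPKM in LKO-labelled females 1 and 2 and males 3 and 4, and at most 1.21 FPKM in any WT liver. Lpl, which encodes lipoprotein lipase and is largely silent in adult hepatocytes, was 179.9 ± 65.0 FPKM in LKO-labelled and 4.03 ± 1.23 FPKM in WT livers (SD, n = 4 each), a difference of 5.12 (limma adjusted p = 0.000169). Several genes of this list were included because of results already known from these livers, so its counts support nothing on their own.

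**Figure D4:**
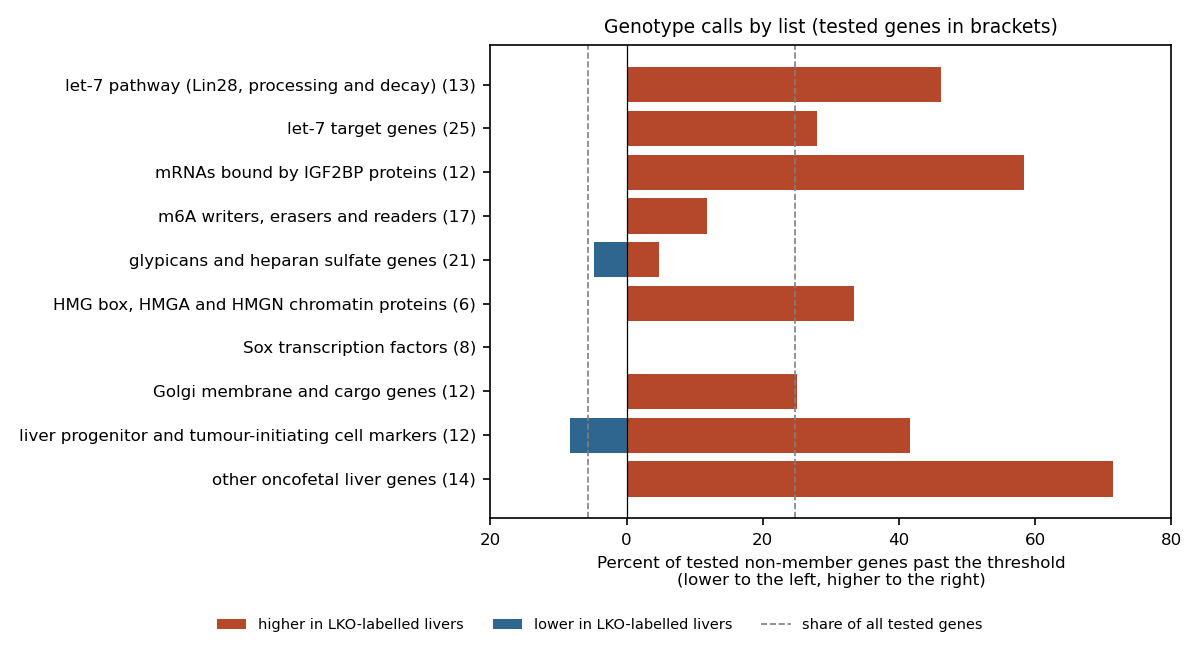
Percent of the tested genes of each list, members left out, that were called higher (red, to the right) or lower (blue, to the left) in LKO-labelled livers, with dashed lines at 24.7% and 5.74%, the shares of all genes tested. The let-7 targets and the Golgi genes lie near the line, and the m6A, heparan sulfate and Sox lists lie below it.

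Marker genes of the cell types of liver were summed to show what else moved with the members; in bulk RNA, fewer cells of a type and less RNA per cell cannot be told apart. Markers of hepatocytes summed to 21900 to 33800 FPKM in LKO-labelled livers and 47030 to 53110 FPKM in WT livers, and 3 of 10 were called lower and none higher, so all 8 samples held the defining RNA of liver. Markers of cholangiocytes, the bile duct cells that also carry Prom1, summed to 351.6 and 3176 FPKM in LKO-labelled females 1 and 2 and 16.1 and 14.9 FPKM in males 3 and 4, against 24.2 to 26.5 FPKM in WT livers. Spp1, which encodes osteopontin, made up most of the sum in the LKO-labelled females, with 290.6 and 3145 FPKM, whereas Epcam was 0.157 and 5.23 FPKM there and 0.190 to 0.577 FPKM in WT livers. Krt7, Cftr and Sctr stayed under 0.5 FPKM in every liver. Of the 6 tested cholangiocyte markers none was called over both sexes or in males, and 3 were called higher in females. For all genes tested, 24.7% were called higher and 5.74% lower over both sexes. The shares called higher were 28.1% in females and 13.4% in males. Stellate cell and fibroblast markers summed to 468.3 and 1506 FPKM in LKO-labelled females and 43.4 and 51.8 FPKM in LKO-labelled males, against 71.8 to 129.8 FPKM in WT livers, with 4 of 10 called higher and 2 lower over both sexes and 7 higher and 1 lower in females. The LKO-labelled females, where Gpc3, Igf2bp1 and Igf2bp2 were high, were thus also the livers with high Spp1 and fibroblast markers, and the part of other cells in the members' levels was not tested.

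Neutrophil markers summed to 378.0 and 58.3 FPKM in LKO-labelled females 1 and 2 and 9.62 and 16.3 FPKM in males 3 and 4, against 1.21 to 4.34 FPKM in WT livers, with 3 of 5 tested called higher over both sexes, 5 in females and 0 in males. Markers of T and NK cells summed to 24.5 and 55.6 FPKM in LKO-labelled females and 2.73 and 2.48 FPKM in LKO-labelled males. The WT livers held 3.23 to 7.49 FPKM. Of the 8 tested, 0 were called over both sexes, 7 were called higher in females and 0 in males. Among all genes tested, 24.7% were called higher over both sexes, 28.1% in females and 13.4% in males.

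LKO-labelled female 2, which had the highest Gpc3, Sox4, Hmga2 and Prom1, also had the highest erythroid, macrophage, endothelial and B and plasma cell sums. For all genes tested, 24.7% were called higher and 5.74% lower over both sexes. Erythroid markers summed to 1711 FPKM in that liver and 103.0 to 457.4 FPKM in the other LKO-labelled livers, against 128.2 to 259.2 FPKM in WT livers, with 1 of 6 called lower. Macrophage markers summed to 405.0 FPKM in that liver and at most 251.4 FPKM in the other LKO-labelled livers, against 115.3 to 256.7 FPKM in WT livers, with 3 of 10 called higher and 4 lower. Endothelial markers summed to 218.0 FPKM in that liver and at most 72.2 FPKM in the other LKO-labelled livers, against 69.2 to 111.8 FPKM in WT livers, with 3 of 10 called higher and 2 lower. B and plasma cell markers summed to 543.8 FPKM in that liver and 478.5 FPKM in WT female 2, and 0 of 6 were called. Whether those cells bear on the members' levels in LKO-labelled female 2 was not tested.

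All 10 markers of dividing cells were called higher, against 24.7% of all genes tested. They summed to 69.3, 17.8, 58.4 and 68.9 FPKM in LKO-labelled females 1 and 2 and males 3 and 4. The WT livers held 2.30 to 4.29 FPKM. Hmga1 followed that pattern, lowest of the LKO-labelled livers in female 2, whereas Gpc3 and Sox4 were highest there; whether cell division bears on Hmga1 was not tested. None of the markers was at 0 in every liver.

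**Figure D5:**
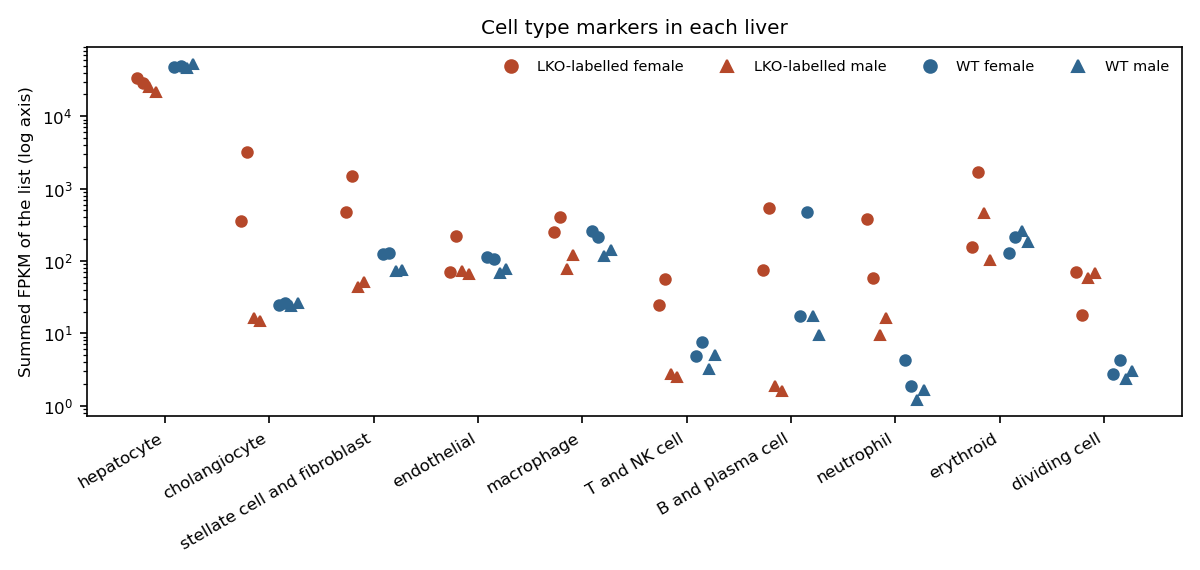
Summed FPKM of the markers of each cell type in each liver on a log axis, with LKO-labelled livers (red) left of WT livers (blue), circles for females and triangles for males. Cholangiocyte, fibroblast and T and NK cell sums are high in the LKO-labelled females alone, and sums of dividing-cell markers are high in all LKO-labelled livers, at 17.8 to 69.3.

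The genes whose profile over the 8 livers lay closest to each tested member were found among 11302 protein-coding genes with a mean of at least 1 FPKM, by the root-mean-square difference of standardised log2(FPKM + 1) values. This measure describes 8 points that share a few high livers. For Igf2bp1 the nearest were Clrn3, Cdh17 and Krt5, at 0.023 to 0.048, and for Gpc3 Itpripl2, Notch3 and Man1c1, at 0.046 to 0.102. Nearest to Igf2bp2 were S1pr2, Arhgap10 and Arhgap9, at 0.071 to 0.084. Nearest to Igf2bp3 were Cep192, Nol4l and Grk3, at 0.065 to 0.076. Nol4l was also the nearest to Golm1, at 0.111, before Epb41l1 and Paxbp1. Hmga1 was nearest to Pomgnt2, Fntb and Tcof1, at 0.101 to 0.153, and Sox4 to Prkx, Ppp2r2a and Ctsd, at 0.127 to 0.176. Prom1 had the loosest match, at 0.237 for Samd9l, 0.251 for Mga and 0.252 for Mysm1.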

How the data were processed

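For 8 libraries and 35275 identifiers the authors deposited FPKM values, which are fragments per length of transcript and library total. The tools named in the submitters' processing notes are STAR 2.6.1, fastp, DESeq2 and HTSeq, on mm10. Their roles, and the strand setting, were not given in the sources used here. The deposited FPKM steps gave whole fragments for 100.0% of genes with a non-zero value, within 0.001, and the depth of each library. The length used was that of the longest transcript for 69.3% of these genes. For 25.2% it was inferred from the FPKM values themselves, so whole fragments are no check there. Because FPKM is relative to the library total, a few abundant genes move all others.

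Genes with a mean of at least 0.5 FPKM (13573) were tested on log2(FPKM + 1) with limma 3.58.1 (R 4.3.3), with trend and a sex term, at a Benjamini-Hochberg adjusted p of 0.05 over all genes tested; this is a "call". Effects by sex and the interaction came from 1 mean per genotype and sex, with 4 residual degrees of freedom, so counts in females and in males borrow 1 spread. The fit was tested on simulated data.

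Named genes are the members, the targeted genes, family paralogs, up to 4 genes per list by smallest p, and 3 nearest profiles per member. Outside that rule, the genes overlapping a member, Trim71, Mettl3, Mettl14, Gpc1, Gpc4 and Gpc6 were chosen after their values were seen. Members and lists were chosen with earlier results of these data known. The labels carry no shared replicate numbers. One match of a searched motif is not reported here. Alternatives changed the pseudocount, filter, scaling, sex term, weights, unit, livers and pairing.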

Additional observations from a re-analysis of the deposited data

Results flagged for a closer look

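In LKO-labelled livers, 1 liver lay far from the other 3 for 3 of the members. This was judged by its gap to the nearest liver divided by the range of the group. The limit was Dixon's 95% critical value for 4 samples, and 16 groups of 4 livers were checked. Chance passes that limit in about 1 group of 20 where values are normally distributed. Untransformed FPKM values need not be, so how often chance passes it here is not known. For Igf2bp1 the value was 0.922, for LKO-labelled female 1 at 5.41 FPKM. For Igf2bp3 it was 0.843, again for LKO-labelled female 1, at 9.22 FPKM. For Hmga2 it was 0.912, for LKO-labelled female 2 at 0.501 FPKM, which is 32 fragments. LKO-labelled female 1 is also one of the 2 libraries with little Gm42418.

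In the main fit the genotype difference was larger in females than in males for Gpc3, by 4.15 on the log2 scale (limma adjusted p = 0.0296). For Igf2bp2 it was larger by 1.64 (limma adjusted p = 0.0363). These calls were lost in 9 of 19 and 12 of 17 alternatives. With a pseudocount of 0.1 the limma adjusted p was 0.0814 for Gpc3 and 0.0813 for Igf2bp2. With limma-voom on recovered fragments it was 0.317 and 0.116. The LKO-labelled sexes also differed in the level of the targeted genes, as given above. In females Gpc3 was higher in 2 of 2 LKO-labelled livers than in both WT livers, and in males likewise in 2 of 2. Such a separation was common, as it held for 54.2% of all genes tested in females and 47.8% in males. Igf2bp2 was higher in 2 of 2 LKO-labelled females than in both WT females; of the LKO-labelled males, 1 was above and 1 below both WT males.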

How the results depend on the processing

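Igf2bp3, Hmga1 and Golm1 kept their direction and their call in all 22 alternatives, with log2 differences of 1.46 to 5.12, 1.82 to 2.42 and 2.25 to 4.11. Gpc3 and Sox4 kept their direction and lost the call in 7 and 6: with no filter (limma adjusted p = 0.0546 and 0.0510), without both LKO-labelled females (1.11 each, 0.0942 and 0.0533), without the livers named above, and for Gpc3 with no sex term (0.0692) or without the 2 libraries low in Gm42418 (0.0648) or with the block given below, for Sox4 with quantile normalization (0.0528). Igf2bp2 was called with limma-voom on recovered fragments (2.73, limma adjusted p = 0.0160), the same with median-of-ratios scaling (2.25, 0.0435) and without both LKO-labelled males (1.68, 0.00743), and Igf2bp1 with limma-voom (5.70, 0.0484) but not with median-of-ratios scaling added (5.21, 0.0812). The Gpc3 interaction was lost in 9 of 19 alternatives and that of Igf2bp2 in 12 of the 17 in which it was tested. The members called, 5, were 3 with no filter and 3 without both LKO-labelled females, and 3 to 5 when 1 liver was left out.

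Over all genes, 4132 genotype calls became 2421 with quantile normalization, 2102 without the 2 libraries low in Gm42418, and 1946 to 4068 with 1 liver left out. Of these calls 81.1% were higher in LKO-labelled livers, against 49.6% with median-of-ratios scaling, 43.2% with quantile normalization and 50.4% with voom and median-of-ratios scaling; the median change of all genes, 0.39, was 0.06 and -0.02 under the first 2. The 978 interaction calls became 577 with a pseudocount of 0.1, 604 with no filter, 27 with voom, 40 with voom and median-of-ratios scaling, and 33 to 2694 with 1 liver left out. Calls in females, 4657, ranged from 2028 to 5801 with 1 liver left out. Calls in males, 2374, became 1574 with no filter, 1559 with quantile normalization, 4109 with sample weights and 346 to 4212 with 1 liver left out. The uncalled interactions changed sign for Igf2bp3 with voom (-0.21) and with voom and median-of-ratios scaling (-0.18), for Hmga1 with median-of-ratios scaling (-0.0054), without the 2 libraries low in Gm42418 (-0.25), without LKO-labelled female 1 (-0.36) and without WT female 1 (-0.14), and for Prom1 without LKO-labelled female 1 (0.07) and without LKO-labelled male 4 (0.66); with 1 liver left out these ranged from -0.36 to 0.70 for Hmga1 and from -1.31 to 0.66 for Prom1. The cause was not tested. The voom fits with median-of-ratios scaling and those without both LKO-labelled females or males, and the means without the highest LKO-labelled liver, were chosen after seeing the data.

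The labels give no shared replicate numbers, but within each sex every LKO-labelled title number is nearest to that of 1 WT liver. A replicate block on these pairs, chosen after seeing the data, gave 2505 genotype calls, 569 interaction calls and 4 members called; Gpc3 lost its genotype call (limma adjusted p = 0.0545) and Igf2bp2 its interaction (0.0781). What near title numbers share is not stated, so the pairing is not part of the design. With 2 livers per genotype and sex, the smallest within-sex permutation p is 0.0556, and a count of 0 allows up to 3 fragments, so Lin28b was not resolved at this depth.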
